A study of Mus musculus with 9 samples.

Results

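Interferon-stimulated genes (ISGs) are the genes that cells switch on when type I interferon binds its receptor. Here 35 of them were followed in mouse libraries labelled CD4 T cell. The cells were kept in medium or given T cell receptor (TCR) stimulation with or without TRAIL. Markers of other spleen cells were also read in these libraries and are given below. The 35 ISGs were chosen by symbol as known ISGs, with earlier results of these data known, and all 35 are among the 55487 genes listed. CD4+ T cells were isolated by negative selection from spleens of wild type (Trail-r+/+) C57BL/6 mice, and RNA-seq was done on 3 groups of 3 libraries. The mice were young females. The first group was kept in medium, for a time that the sources used here do not give. The second, called stimulated here, was cultured for 24 h with an Ab to CD3 (3 µg/ml), which triggers the TCR, and an Ab to the costimulatory receptor CD28 (2 µg/ml). In the third, TRAIL, a TNF family member that binds TRAIL-R, was present at 10 µg/ml throughout the same 24 h of stimulation. All 3 groups carry intact Trail-r, so TRAIL-R-deficient cells and TRAIL alone are not part of these comparisons.

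Type I interferons bind the receptor IFNAR, whose kinases JAK1 and TYK2 activate the transcription factor complex ISGF3, which binds the interferon-stimulated response element (ISRE) in the promoters of ISGs. Many ISG products sense viral RNA, degrade it, block its translation or keep virus out of the cell, and T cells express part of the set in the absence of infection. Interferon gamma, which activated T cells secrete, acts through a different promoter element, GAS, and induces some of the same genes.

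The ISRE core was searched as the letters GAAA, any 2 bases and GAAA on both strands of the promoter windows that RefSeq gives for GRCm38.p6, which run from 250 bases before to 50 bases after each transcription start. A window was available for 25 of the 35 genes, and 13 of these (52%) held the letters, against 3.99% of 27025 genes with a window. In the 250 bases before the start alone the letters stood in 9 of 25 (36%), against 3.46% of all genes. The GAS letters TTCNNNGAA, on either strand, were found in 6 of the 25 windows (24%) and in 9.55% of all genes. The matches describe the letters of these windows, and binding was not measured. The following stretches are shown because they carry the element in genes that moved in different directions below: Isg15 was higher after stimulation, Oas3 was lower with TRAIL, Ifit1 and Rsad2 were lower after stimulation, and Ifit3 and Ifit3b are neighbouring copies. Each is written 5′ to 3′ on the strand of its gene from RefSeq, GRCm38.p6, and ends before the annotated gene. Capitals mark the ISRE letters, which read TTTC, any 2 bases and TTTC where the match is on the opposite strand. They are chr4:156200819-156201018 (minus strand), chr5:120777662-120777859 (minus), chr19:34640689-34640870 (plus), chr12:26456453-26456652 (minus), chr19:34583329-34583528 (plus) and chr19:34607757-34607956 (plus).
Isg15: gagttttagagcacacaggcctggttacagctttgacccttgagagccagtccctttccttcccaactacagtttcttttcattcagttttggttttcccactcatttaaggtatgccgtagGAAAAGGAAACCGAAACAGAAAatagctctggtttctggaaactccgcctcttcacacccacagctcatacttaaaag
Oas3: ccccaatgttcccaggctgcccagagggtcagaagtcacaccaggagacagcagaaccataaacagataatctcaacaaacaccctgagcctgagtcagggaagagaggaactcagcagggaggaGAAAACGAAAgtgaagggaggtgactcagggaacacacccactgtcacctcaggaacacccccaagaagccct
Ifit1: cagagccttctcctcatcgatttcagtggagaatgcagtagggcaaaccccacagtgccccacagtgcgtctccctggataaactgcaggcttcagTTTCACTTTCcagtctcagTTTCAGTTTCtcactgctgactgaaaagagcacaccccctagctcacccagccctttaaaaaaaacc
Rsad2: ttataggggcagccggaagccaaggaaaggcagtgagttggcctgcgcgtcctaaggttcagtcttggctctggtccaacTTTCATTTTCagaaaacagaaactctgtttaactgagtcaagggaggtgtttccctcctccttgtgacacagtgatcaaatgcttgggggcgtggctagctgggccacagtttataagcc
Ifit3: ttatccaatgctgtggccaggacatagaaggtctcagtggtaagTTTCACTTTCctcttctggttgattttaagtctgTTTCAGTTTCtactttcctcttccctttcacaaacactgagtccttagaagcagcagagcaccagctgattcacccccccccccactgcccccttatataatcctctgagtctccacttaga
Ifit3b: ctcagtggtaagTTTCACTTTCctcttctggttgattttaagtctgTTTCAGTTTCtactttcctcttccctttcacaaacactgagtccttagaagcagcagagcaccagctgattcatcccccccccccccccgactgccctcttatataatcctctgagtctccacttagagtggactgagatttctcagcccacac

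In Isg15, 3 matches overlap in 1 run of capitals. Ifit1, Ifit3 and Ifit3b each hold 2 matches on the opposite strand, and the Ifit3 and Ifit3b stretches share an identical run of 119 bases. For stimulated against medium, the letters were in 1 of the 2 windows of genes called higher after stimulation, in 5 of the 8 windows of genes called lower, and in 7 of the 15 windows of genes not called.

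**Figure D1:**
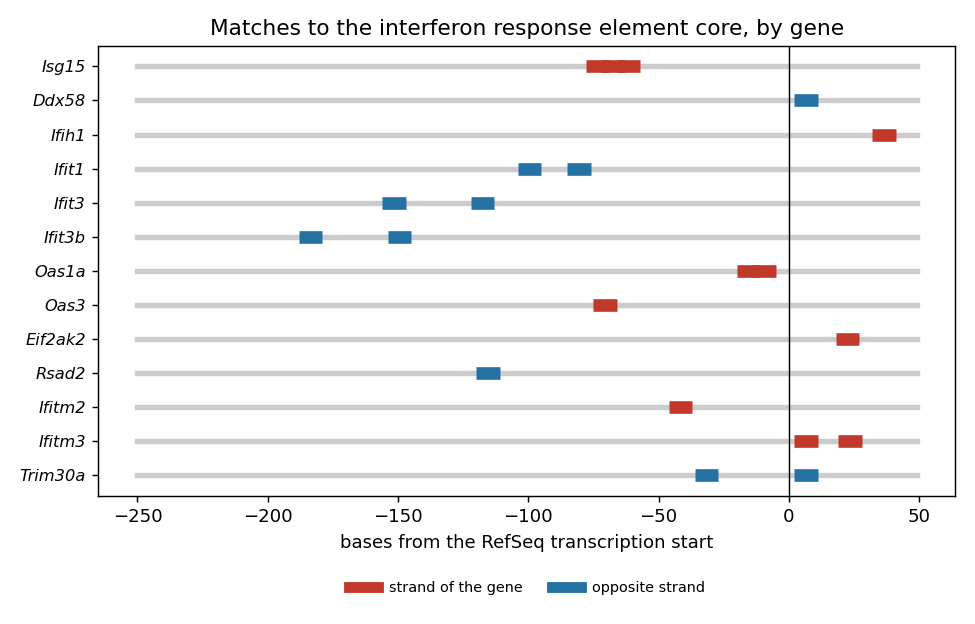
Positions of the ISRE letters in the promoter windows of the 13 genes that hold them, in bases from the RefSeq transcription start (x axis). Grey lines are the windows, red boxes are matches on the strand of the gene and blue boxes are matches on the opposite strand. In 9 genes at least 1 match lies before the start, and in Ddx58, Ifih1, Eif2ak2 and Ifitm3 all matches lie after it.

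The levels given here are TPM, which divide reads by gene length and set each library to the same total, so they can be compared between genes as shares of the transcripts. Differences are log2 fold changes of TPM + 1 from limma, fitted on all 9 libraries and on the 15536 genes that reached 1 TPM in 3 or more libraries, a filter that all 35 ISGs passed. A gene is called higher or lower at a Benjamini-Hochberg adjusted p under 0.05 over all genes tested if its log2 fold change is also 1 or more in either direction. The labels do not say whether the libraries of a group came from separate mice, so the p-values measure the spread between these libraries. Depth is unknown, since TPM keeps no read totals. In these bulk libraries fewer cells of a type and less RNA per cell cannot be told apart.

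The 35 ISGs were read at moderate levels in all groups. Their summed TPM was 1742 to 1815 in medium, 1286 to 1546 after stimulation and 1138 to 1289 after stimulation with TRAIL, and the stimulated and TRAIL ranges overlapped at their edges. In medium, the highest mean was 277 TPM for Samd9l and the lowest was 1.90 TPM for Ifi44. A mean of at least 10 TPM was reached by 33 genes in medium, by 27 after stimulation and by 29 with TRAIL. The ISGs varied more between the stimulated libraries, where the median coefficient of variation was 19.1%, than in medium (8.14%) or with TRAIL (8.18%). Whether all genes tested varied in the same way was not measured.

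More ISGs fell than rose after stimulation. Of the 35, 3 were called higher (8.57%) and 12 lower (34.3%), while 12.4% of all genes tested were called higher and 19.5% lower. With a pseudocount of 5, Ifitm1 of the 3 and Rsad2, Mx2, Ifitm3, Oas2 and Ifit1 of the 12 were not called. Over all genes tested the calls then fell from 1926 to 1250 higher and from 3033 to 1696 lower. All stimulated libraries were above all medium libraries for 7 ISGs and below them for 18, against 29.9% and 42.6% of all genes tested. The counts at an adjusted p under 0.05 without a fold minimum were again 7 and 18, beside 28.8% and 40% of all genes tested. The median log2 fold change was -0.45 for the ISGs and -0.15 for all genes tested.

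With TRAIL, 8 ISGs were called higher than in stimulated cells (22.9%) and 7 lower (20%), beside 16.6% and 14.3% of all genes tested. With a pseudocount of 5, Mx1, Mx2 and Cmpk2 of the 8 and Isg20 and Dtx3l of the 7 were not called. Over all genes tested the calls then fell from 2580 to 1412 higher and from 2220 to 1471 lower. Libraries did not overlap for 12 ISGs with TRAIL higher and 13 with TRAIL lower, beside 35.5% and 34.9% of all genes tested, and 12 and 14 passed the adjusted p alone, beside 33.5% in each direction. The median of this comparison was -0.09, against 0.011 for all genes tested, and it turned to 0.0050 under median-of-ratios scaling and to 0.0088 without stimulated replicate 2, settings in which the median of all genes tested also moved up, to 0.093 and 0.059. Against medium, TRAIL-treated cells had 0 ISGs called higher and 2 lower (5.71%), beside 2.49% and 2.13% of all genes tested. The 3 comparisons share libraries, so their results are given side by side and are not independent of each other.

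**Figure D2:**
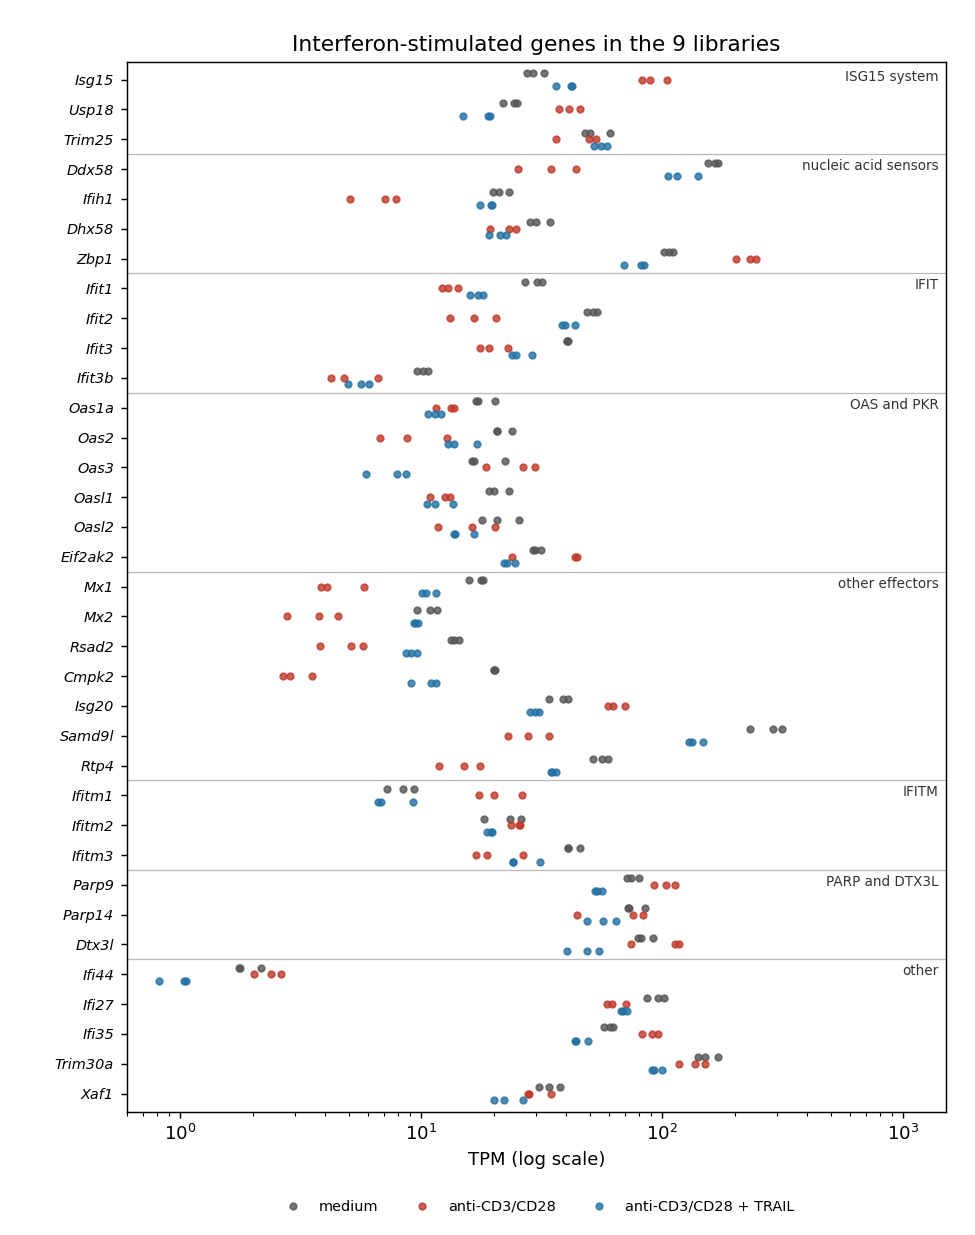
TPM (log scale, x axis) of each of the 35 ISGs in each of the 9 libraries, grouped by role. Each point is 1 library: grey for medium, red for anti-CD3/CD28 and blue for anti-CD3/CD28 with TRAIL. Samd9l, Ddx58 and Cmpk2 show the red points far to the left of the others, and Isg15, Zbp1 and Ifitm1 show them to the right.

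Among the RNA sensors, the helicases Ddx58 (RIG-I) and Ifih1 (MDA5), which signal through MAVS, fell after stimulation and were higher with TRAIL. Ddx58 was at 155, 170.3 and 165 TPM in medium, 25.2, 44 and 34.6 TPM after stimulation and 141, 105 and 115 TPM with TRAIL. The stimulated libraries lay below all others by a wide margin, and the TRAIL libraries lay below medium without overlap. The log2 fold change was -2.24 ± 0.18 (SE) for stimulated against medium (limma adjusted p = 1.81e-06) and 1.80 ± 0.18 for TRAIL against stimulated (limma adjusted p = 1e-05). For TRAIL against medium it was -0.45 ± 0.18 with a limma adjusted p of 0.0852.

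Ifih1 was lower in level and had the same shape, with 21, 23.2 and 19.9 TPM in medium, 5.08, 7.89 and 7.09 TPM after stimulation and 19.7, 19.5 and 17.5 TPM with TRAIL. All stimulated libraries were below the rest, and the medium and TRAIL libraries were close but did not overlap. Stimulation gave a log2 fold change of -1.56 ± 0.15 (SE) and TRAIL against stimulated one of 1.39 ± 0.15, with limma adjusted p = 5.65e-06 and 1.37e-05. Dhx58 (LGP2), the relative that lacks the signalling domains of the other two, was called in no comparison and had 28.4 to 34.3 TPM in medium, 19.4 to 24.7 TPM after stimulation and 19.1 to 22.4 TPM with TRAIL.

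Zbp1, a sensor of Z-form nucleic acids that can start necroptosis, moved the other way. It stood at 102, 111 and 107 TPM in medium, 202, 244 and 231 TPM after stimulation and 81.4, 83.8 and 69.4 TPM with TRAIL. The groups did not overlap, with the stimulated libraries highest and the TRAIL libraries below medium. Zbp1 had a log2 fold change of 1.07 ± 0.11 (SE) after stimulation (limma adjusted p = 8.12e-06), -1.52 ± 0.11 for TRAIL against stimulated (limma adjusted p = 6.31e-07) and -0.44 ± 0.11 for TRAIL against medium (limma adjusted p = 0.0105, below the fold minimum). Under quantile normalization the rise after stimulation was 0.96 and was not called.

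Isg15 encodes a ubiquitin-like protein that is attached to other proteins or secreted, and it had the largest rise of the 35 after stimulation. Its values were 29.2, 27.4 and 32.2 TPM in medium, 105, 88.8 and 82.1 TPM after stimulation and 42.1, 41.6 and 36.1 TPM with TRAIL. Every stimulated library was above every other library, and the TRAIL libraries were above medium without overlap. Isg15 had a log2 fold change of 1.60 ± 0.12 (SE, limma adjusted p = 8.7e-07) after stimulation and -1.18 ± 0.12 (limma adjusted p = 9.09e-06) for TRAIL against stimulated. Against medium, TRAIL-treated cells kept a difference of 0.42 ± 0.12 (limma adjusted p = 0.0215), and Isg15 was the only one of the 35 with a higher value there at an adjusted p under 0.05.

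Usp18, which removes ISG15 from proteins and also blocks the interferon receptor, was called only between TRAIL and stimulated cells. It was at 24.2, 25 and 21.9 TPM in medium, 45.6, 40.9 and 37.1 TPM after stimulation and 18.9, 19.2 and 14.9 TPM with TRAIL. The TRAIL libraries were lowest and the stimulated libraries highest, with no overlap. The log2 fold change for TRAIL against stimulated was -1.18 ± 0.12 (SE, limma adjusted p = 1.43e-05), and that for stimulated against medium was 0.77 ± 0.12 (limma adjusted p = 0.000298), under the fold minimum. Trim25, a ubiquitin ligase that acts on RIG-I, was not called, with 47.9 to 60.4 TPM in medium, 36.3 to 52.9 TPM after stimulation and 52.1 to 59.2 TPM with TRAIL.

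**Figure D3:**
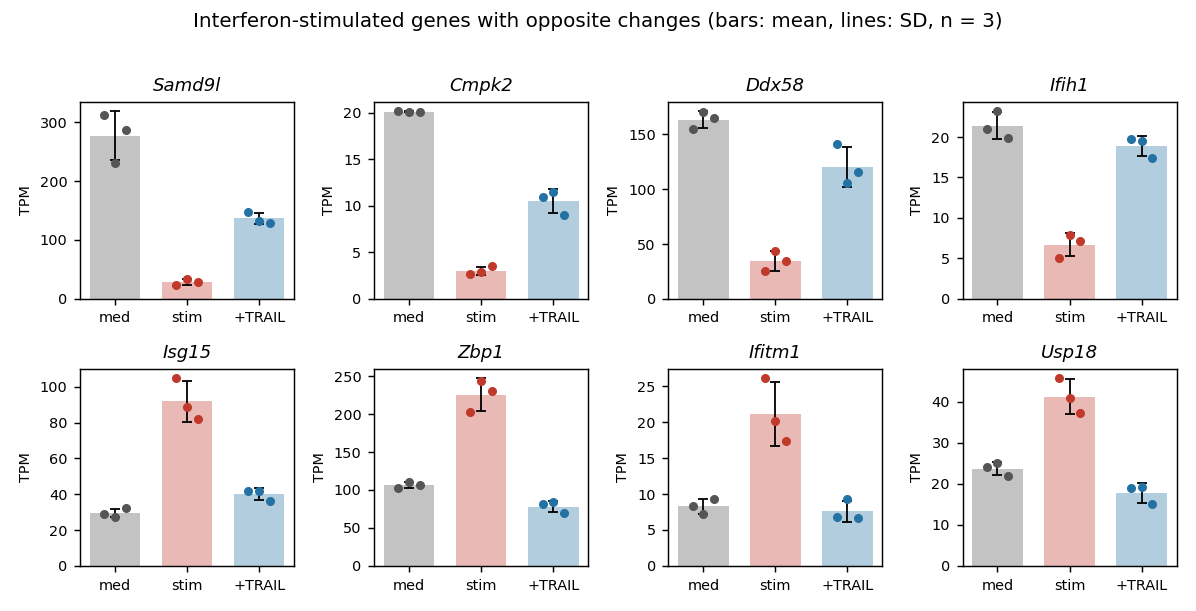
TPM (y axis, from 0) of 8 ISGs in medium (med), after anti-CD3/CD28 (stim) and after anti-CD3/CD28 with TRAIL (+TRAIL). Bars are means of 3 libraries, lines are SDs and points are single libraries. In the upper row (Samd9l, Cmpk2, Ddx58, Ifih1) the stimulated bar is the lowest, and in the lower row (Isg15, Zbp1, Ifitm1, Usp18) it is the highest.

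The IFIT proteins bind foreign RNA and hinder its translation, and their genes lie side by side on chromosome 19. All 4 had no overlap between stimulated and medium libraries and were lower after stimulation, and 2 passed both thresholds. Ifit2 was at 53.5, 48.7 and 51.6 TPM in medium, 13.2, 20.4 and 16.6 TPM after stimulation and 43.6, 38.2 and 39.6 TPM with TRAIL. The stimulated libraries were the lowest, and the TRAIL libraries reached values just under medium. Its log2 fold changes were -1.58 ± 0.14 (SE, limma adjusted p = 3.91e-06) for stimulated against medium and 1.24 ± 0.14 (limma adjusted p = 2.37e-05) for TRAIL against stimulated.

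Ifit1 also fell after stimulation, from 31.7, 27 and 30.1 TPM in medium to 12.9, 14.2 and 12.2 TPM, and was at 15.9, 17.2 and 18 TPM with TRAIL. The TRAIL libraries stayed far nearer to the stimulated than to the medium libraries, without overlap. The log2 fold change of Ifit1 was -1.12 ± 0.11 (SE, limma adjusted p = 6.12e-06) after stimulation, and for TRAIL against stimulated it was 0.35 ± 0.11 (limma adjusted p = 0.0132), which was not called. The fall of Ifit1 was not called under quantile normalization (-0.92) or with a pseudocount of 5 (-0.93). Ifit3 missed the fold minimum after stimulation (log2 fold change -0.996 ± 0.12, limma adjusted p = 3.35e-05), as did Ifit3b (-0.86 ± 0.15), and both were called without stimulated replicate 2 (-1.10 and -1.01). Of the stretches of 100 bases in the transcripts of Ifit3, 31.7% also occur in Ifit3b, and 27.4% of those of Ifit3b occur in Ifit3, so the division of reads between them is uncertain.

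The OAS enzymes make oligoadenylates that activate RNase L, and the gene for PKR (Eif2ak2), a kinase that halts translation, is grouped with them. Only Oas3 was called with TRAIL and only Oas2 after stimulation. Oas3 was at 16.2, 22.2 and 16.6 TPM in medium, 18.5, 29.5 and 26.3 TPM after stimulation and 8.61, 7.9 and 5.88 TPM with TRAIL. The medium and stimulated libraries overlapped, and all TRAIL libraries were below both. Oas3 had a log2 fold change of -1.60 ± 0.20 (SE, limma adjusted p = 4.57e-05) against stimulated and -1.19 ± 0.20 (limma adjusted p = 0.00187) against medium, the largest fall of the 35 in both comparisons on this scale. With a pseudocount of 5 the value against medium was -0.90, a smaller fall than that of Samd9l (-0.98), and was not called. Against stimulated the weakest value of Oas3 over the alternatives was -1.24, and that of Zbp1 was -1.30, so the rank depends on the setting.

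Oas2, the next gene on chromosome 5, was at 20.6, 23.9 and 20.7 TPM in medium, 6.74, 12.8 and 8.73 TPM after stimulation and 17, 13.7 and 13 TPM with TRAIL. Medium was highest without overlap. Its fall after stimulation had a log2 fold change of -1.16 ± 0.20 (SE, limma adjusted p = 0.00041), and the call was lost without stimulated replicate 1, where the value was -0.97, under quantile normalization (-0.92) and with a pseudocount of 5 (-0.91). Oas1a, Oasl1 and Oasl2 were called nowhere, with log2 fold changes of -0.47, -0.72 and -0.40 after stimulation and -0.62, -0.76 and -0.50 for TRAIL against medium. Oas1a shares 40.9% of its stretches of 100 bases with Oas1g, so its values are uncertain. Eif2ak2 was at 29 to 31.4 TPM in medium, 23.7 to 44.1 TPM after stimulation and 22 to 24.5 TPM with TRAIL, and was not called.

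Samd9l, an interferon-induced restraint on virus replication and cell growth, had the largest fall of the 35 after stimulation and the largest rise with TRAIL against stimulated. It was at 313, 231 and 287 TPM in medium, 22.9, 33.8 and 27.8 TPM after stimulation and 147, 133 and 129.5 TPM with TRAIL. The stimulated mean was 0.102 of the medium mean, and the TRAIL libraries lay between the others with no overlap on either side. The log2 fold change was -3.26 ± 0.15 (SE, limma adjusted p = 3.19e-08) after stimulation, 2.25 ± 0.15 (limma adjusted p = 5.2e-07) for TRAIL against stimulated and -1.01 ± 0.15 (limma adjusted p = 0.00116) for TRAIL against medium. This last call sits at the fold minimum and was lost under either other scaling and when medium replicate 1 or 3 or TRAIL replicate 2 or 3 was left out (-0.91, -0.97, -0.99 and -0.97), which leaves Oas3 alone. With a pseudocount of 5 it was -0.98, and no ISG was called against medium.

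Cmpk2 and Rsad2 are neighbours on chromosome 12: the first encodes a mitochondrial nucleotide kinase and the second viperin, which makes a chain-terminating nucleotide. Cmpk2 was at 20.2, 20.1 and 20.1 TPM in medium, 2.66, 2.86 and 3.52 TPM after stimulation and 11, 11.5 and 9.04 TPM with TRAIL. The 3 groups were apart, with TRAIL in the middle. Its log2 fold changes were -2.40 ± 0.13 (SE, limma adjusted p = 7.3e-08), 1.52 ± 0.13 (limma adjusted p = 2.31e-06) and, against medium, -0.88 ± 0.13 (limma adjusted p = 0.000829, not called). With a pseudocount of 5 the rise with TRAIL was 0.95 and was not called. Rsad2 fell after stimulation with -1.34 ± 0.13 (limma adjusted p = 9.16e-06) but its difference with TRAIL, 0.79 ± 0.13 (limma adjusted p = 0.000426), was under the fold minimum, as was its fall with a pseudocount of 5 (-0.93). It was at 13.3 to 14.4 TPM in medium, 3.81 to 5.73 TPM after stimulation and 8.63 to 9.58 TPM with TRAIL.

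Mx1 and Mx2 encode dynamin-like GTPases that trap viral components, and laboratory strains such as C57BL/6 carry defective copies, with Mx2 annotated as a polymorphic pseudogene in GENCODE M21. Mx1 was at 18.1, 17.7 and 15.8 TPM in medium, 4.06, 5.78 and 3.85 TPM after stimulation and 10.0, 10.4 and 11.5 TPM with TRAIL. Mx2 was at 10.9, 9.63 and 11.6 TPM in medium, 2.79, 3.76 and 4.52 TPM after stimulation and 9.66, 9.46 and 9.31 TPM with TRAIL. In both genes the stimulated libraries were lowest without overlap, and for Mx2 the TRAIL libraries overlapped with medium. The log2 fold changes were -1.72 ± 0.14 and -1.33 ± 0.15 (SE) after stimulation and 1.08 ± 0.14 and 1.18 ± 0.15 for TRAIL against stimulated, with limma adjusted p from 2.17e-06 to 7.11e-05. The call of Mx1 with TRAIL was lost without stimulated replicate 3, where the value was 0.99. Under quantile normalization it was 0.96 for Mx1 with TRAIL and -0.99 for Mx2 after stimulation, and neither was called. With a pseudocount of 5, the calls of Mx1 with TRAIL (0.72) and of Mx2 after stimulation (-0.86) and with TRAIL (0.74) were lost.

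Rtp4, an RNA-binding protein that restrains flaviviruses, was at 51.8, 56.3 and 59.5 TPM in medium, 15, 17.5 and 11.8 TPM after stimulation and 34.7, 36.1 and 34.8 TPM with TRAIL. All groups were apart, with TRAIL between the others. The log2 fold changes of Rtp4 were -1.86 ± 0.13 (SE, limma adjusted p = 6.37e-07) and 1.22 ± 0.13 (limma adjusted p = 1.64e-05). Isg20, an exonuclease that degrades viral RNA, was called lower with TRAIL than in stimulated cells, at -1.09 ± 0.10 (limma adjusted p = 6.02e-06). It was at 40.6, 33.9 and 38.6 TPM in medium, 59.7, 69.7 and 62.2 TPM after stimulation and 29.6, 28.3 and 30.7 TPM with TRAIL, so the stimulated libraries were highest and no groups overlapped. The call of Isg20 was lost under median-of-ratios scaling (-0.99), quantile normalization (-0.98) and a pseudocount of 5 (-0.99).

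The IFITM proteins sit in membranes and block the entry of enveloped viruses, and their genes, which are neighbours on chromosome 7, went separate ways. Ifitm1 was at 8.39, 7.19 and 9.32 TPM in medium, 26.1, 20.1 and 17.4 TPM after stimulation and 6.8, 9.27 and 6.64 TPM with TRAIL. The stimulated libraries were above all others, and medium and TRAIL overlapped. Ifitm1 had log2 fold changes of 1.24 ± 0.17 (SE, limma adjusted p = 0.000108) after stimulation and -1.37 ± 0.17 (limma adjusted p = 5.53e-05) for TRAIL against stimulated, and the rise was 0.97 and not called with a pseudocount of 5. Ifitm3 was at 45.4, 40.8 and 40.8 TPM in medium, 26.4, 18.8 and 16.9 TPM after stimulation and 24, 31.2 and 24.1 TPM with TRAIL. Its fall after stimulation, -1.02 ± 0.17 (limma adjusted p = 0.000298), lay at the fold minimum. The medium libraries were above the others, and stimulated and TRAIL libraries overlapped. The call was lost under either other scaling, with a pseudocount of 5 (-0.90) and without medium replicate 1 or stimulated replicate 2 or 3, where the value was -0.97, -0.97 and -0.90. Ifitm2, which shares 34.9% of its stretches of 100 bases with other listed genes, was not called and was at 18.3 to 25.8 TPM in medium, 23.6 to 25.7 TPM after stimulation and 18.8 to 19.6 TPM with TRAIL.

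Parp9 and Dtx3l encode partners in an ADP-ribosylating ubiquitin ligase complex. Their loci overlap on opposite strands of chromosome 16, and whether reads were counted by strand is not given in the sources used here, so reads of the overlap cannot be assigned with certainty. Dtx3l was at 81.8, 91.8 and 79.1 TPM in medium, 73.9, 118 and 113 TPM after stimulation and 54.7, 48.7 and 40.2 TPM with TRAIL. The TRAIL libraries were lowest without overlap, and the stimulated libraries straddled medium. TRAIL against stimulated gave -1.05 ± 0.18 (SE, limma adjusted p = 0.000424) on the log2 scale, a call lost under either other scaling, with a pseudocount of 5 (-0.99) and without stimulated replicate 2 or 3 or TRAIL replicate 3, where the value was -0.93, -0.96 and -0.93. Parp9 was just short of the fold minimum there (-0.91 ± 0.10, limma adjusted p = 1.65e-05), and Parp14, a mono-ADP-ribosyltransferase, was not called (-0.21 ± 0.21, limma adjusted p = 0.398). The value of Parp14 ran from -0.49 to -0.04 over the alternatives and was called in none. Its stimulated libraries were at 44.2, 82.8 and 75.6 TPM.

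Of the 5 remaining ISGs none was called. Ifi35, a partner of NMI, was just under the fold minimum for TRAIL against stimulated, with 62.6, 60.6 and 57.2 TPM in medium, 95.6, 82.4 and 90.4 TPM after stimulation and 43.3, 49.2 and 44 TPM with TRAIL. All groups were apart, stimulated highest and TRAIL lowest, and the log2 fold change was -0.96 ± 0.09 (SE, limma adjusted p = 8.65e-06). Without stimulated replicate 2 or TRAIL replicate 2 it was -1.02 and was called. The mitochondrial Ifi27 had 86.1 to 101 TPM in medium, 59 to 70.7 TPM after stimulation and 67.7 to 71.3 TPM with TRAIL. Trim30a was at 141 to 170.5 TPM in medium, 117 to 150.0 TPM after stimulation and 90.8 to 99.4 TPM with TRAIL. Xaf1, which antagonizes the apoptosis inhibitor XIAP, had a log2 fold change of -0.39 ± 0.13 for TRAIL against stimulated. Ifi44, the lowest of the 35, was at 2.17, 1.76 and 1.76 TPM in medium, 2.37, 2.63 and 2.02 TPM after stimulation and 1.04, 0.814 and 1.06 TPM with TRAIL. Its TRAIL libraries were below all others, and the log2 fold change against stimulated was -0.76 ± 0.13. It was -1.19 and called with a pseudocount of 0.1, -0.30 with a pseudocount of 5, and -1.10 and called under quantile normalization.

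**Figure D4:**
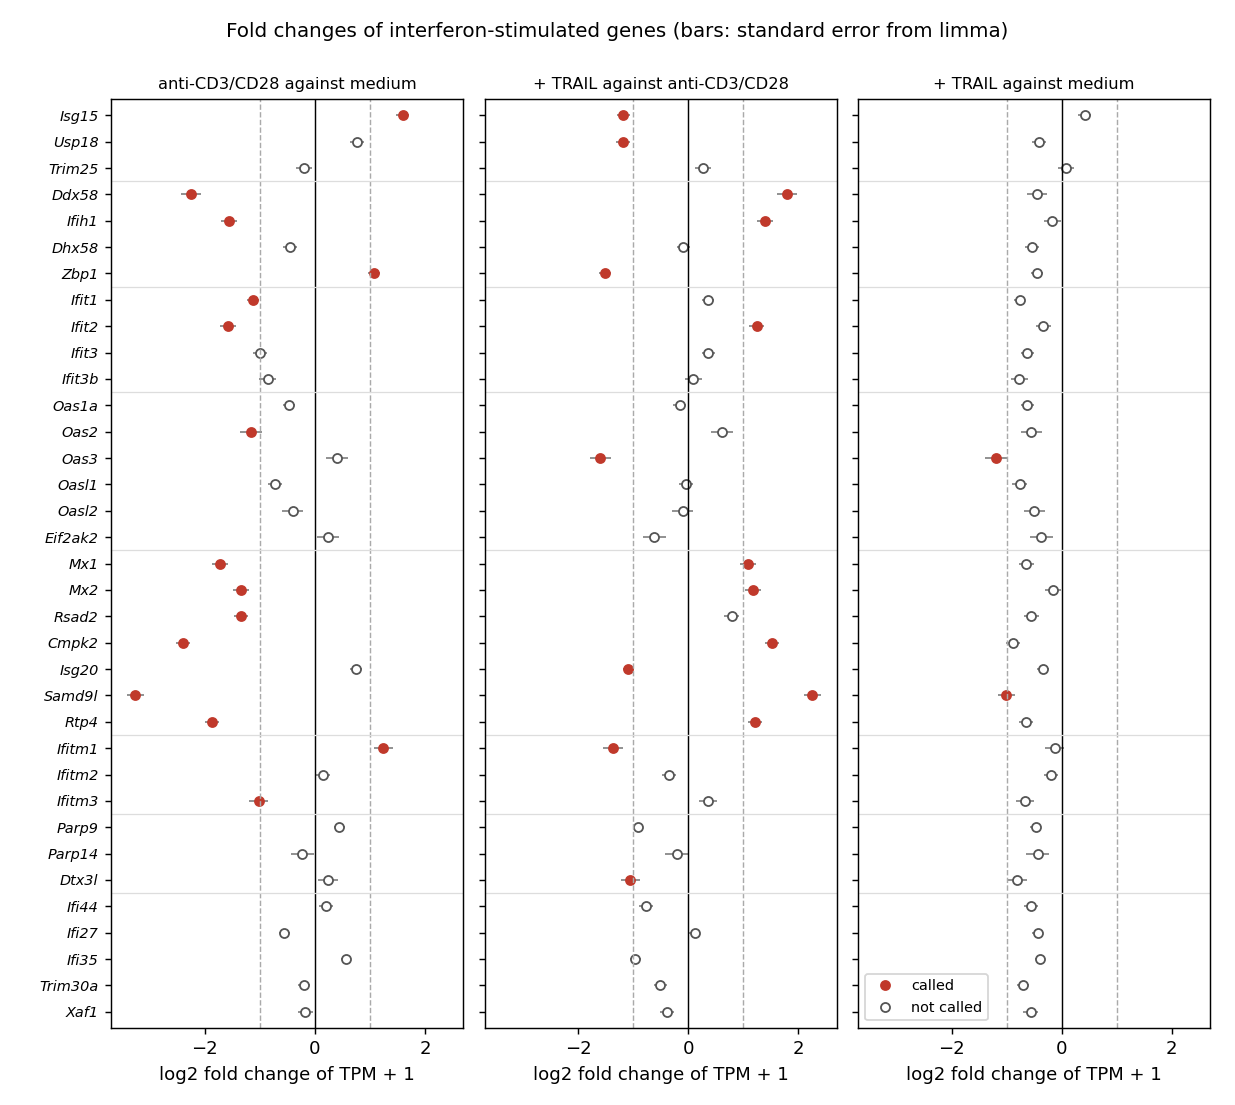
Log2 fold changes of TPM + 1 (x axis) of the 35 ISGs in the 3 comparisons, with standard errors from limma. Filled red points passed both thresholds, open points did not, and dashed lines mark a log2 fold change of -1 and 1. In the left panel 12 filled points lie below -1 and 3 above 1, in the middle panel 8 lie above 1 and 7 below -1, and in the right panel only Oas3 and Samd9l are filled.

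Sorted by their calls, 3 ISGs were higher after stimulation and lower with TRAIL than in stimulated cells (Isg15, Zbp1 and Ifitm1). Another 8 were lower after stimulation and higher with TRAIL than in stimulated cells (Ddx58, Ifih1, Ifit2, Mx1, Mx2, Cmpk2, Samd9l and Rtp4). A further 4 were lower after stimulation and not called with TRAIL (Ifit1, Oas2, Rsad2 and Ifitm3), and 4 were called only as lower with TRAIL (Usp18, Oas3, Isg20 and Dtx3l). The other 16 were called in none of the 3 comparisons. The summed TPM of the 12 genes called lower after stimulation was 683 to 756 in medium, 141 to 188 after stimulation and 430.2 to 484 with TRAIL. That of the 3 genes called higher was 139.7 to 148 in medium, 330.5 to 353 after stimulation and 112 to 135 with TRAIL. These sums follow from how the genes were sorted and carry no test.

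Most ISGs were a little lower with TRAIL than in medium. In 30 of the 35 (85.7%) all TRAIL libraries were below all medium libraries, against 38.2% of all genes tested, and in 1 (Isg15) all were above, against 12.4%. At an adjusted p under 0.05 without a fold minimum, 23 of 35 (65.7%) were lower, beside 24.6% of all genes tested, and 1 was higher, beside 8.03%. The median log2 fold change was -0.54 for the ISGs and -0.18 for all genes tested. Under median-of-ratios scaling, which moved the median of all genes tested by 0.17 in this comparison, the median of the ISGs was -0.36, and under quantile normalization, with a shift of 0.14, it was -0.37. Quantile normalization also moved the median of all genes tested for stimulated against medium by 0.19.

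The genes of the pathway that acts on ISGs (ligands, receptors, signalling, production and restraint) were taken from lists of 59 symbols, of which 38 passed the filter. After stimulation 4 of the 38 were called higher (10.5%) and 10 lower (26.3%). With TRAIL 11 were higher than in stimulated cells (28.9%) and 7 lower (18.4%), and against medium 4 were higher (10.5%) and 2 lower (5.26%). A further list of 76 other interferon-inducible genes, 75 of them tested, had 5 higher and 25 lower after stimulation, 18 and 13 for TRAIL against stimulated, and 1 and 7 for TRAIL against medium. The background shares are those given above for the ISGs.

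Of 21 interferon ligand genes only Ifng passed the filter. The genes of type I and type III interferons were listed at or near the lowest value of the table, 0.0001 TPM, and the gene for interferon beta, Ifnb1, was at most 0.271 TPM in any library. Ifng was at 10.2, 7.71 and 9.66 TPM in medium, 249, 210.4 and 188 TPM after stimulation and 33.2, 39.5 and 51.3 TPM with TRAIL. All groups were apart, with TRAIL between medium and stimulated. The log2 fold changes of Ifng were 4.41 ± 0.17 (SE, limma adjusted p = 8.73e-09), -2.37 ± 0.17 (limma adjusted p = 8.33e-07) and 2.04 ± 0.17 (limma adjusted p = 2.87e-05).

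Of the receptor genes, 3 of the 5 tested were higher with TRAIL than in stimulated cells and none was called after stimulation. Ifnar1, a chain of the type I receptor, was at 97, 113 and 97.7 TPM in medium, 48.8, 67.8 and 63.7 TPM after stimulation and 151, 147 and 129 TPM with TRAIL. The TRAIL libraries were above medium and the stimulated libraries below it, with no overlap. TRAIL against stimulated gave 1.24 ± 0.13 (SE, limma adjusted p = 1.48e-05). The other chain, Ifnar2, was not called (-0.84 ± 0.11 after stimulation and 0.68 ± 0.11 for TRAIL against stimulated).

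The interferon gamma receptor genes Ifngr1 and Ifngr2 were higher with TRAIL than in stimulated cells by 1.15 ± 0.09 and 1.31 ± 0.08 (SE, limma adjusted p = 1.79e-06 and 2.69e-07). Ifngr2 was at 36.3, 36.5 and 35.2 TPM in medium, 36.7, 35.2 and 36 TPM after stimulation and 87.3, 94.9 and 90.3 TPM with TRAIL. Its TRAIL libraries lay apart from the overlapping medium and stimulated libraries, and it was called higher against medium too (1.31 ± 0.08, limma adjusted p = 3.76e-06). Il10rb, a chain shared with type III interferon, was not called, with 61.4 to 72.7 TPM in medium, 38.4 to 40.3 TPM after stimulation and 35.6 to 45.5 TPM with TRAIL, and its partner Ifnlr1 did not pass the filter.

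The kinases split. Jak1, which serves the type I and type II receptors, was at 489, 539.5 and 491 TPM in medium, 166, 245 and 237 TPM after stimulation and 546, 534 and 476 TPM with TRAIL, and Jak2, which serves the interferon gamma receptor, was at 94.1, 95.5 and 89.1 TPM, 190.4, 260.0 and 255 TPM and 89.1, 88.1 and 79.3 TPM. Stimulated cells were lowest in Jak1 and highest in Jak2, without overlap. Medium and TRAIL overlapped in Jak1, and in Jak2 the TRAIL libraries lay just below medium. The log2 fold changes were -1.24 ± 0.14 and 1.28 ± 0.14 for Jak1 and 1.32 ± 0.12 and -1.44 ± 0.12 for Jak2 (stimulated against medium, then TRAIL against stimulated, SE), with limma adjusted p from 3.05e-06 to 2.6e-05. Tyk2 was not called (-0.65 ± 0.16 after stimulation, limma adjusted p = 0.00538).

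Of the genes for ISGF3 subunits, Stat2 (-0.59 ± 0.23, limma adjusted p = 0.0448) and Irf9 (0.56 ± 0.10, limma adjusted p = 0.000636) were not called for TRAIL against stimulated, and Irf9 was at 109 to 126 TPM in medium, 68 to 70.1 TPM after stimulation and 90.7 to 110.0 TPM with TRAIL.

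Of 14 genes that lead to interferon production, 5 were lower after stimulation, and with TRAIL 3 were higher than in stimulated cells and 1 lower. Those 3 were Tlr9 (1.63), Tlr3 (1.41), which are receptors for DNA and double-stranded RNA in endosomes, and the kinase gene Ikbke (1.28), and the DNA sensor gene Cgas was lower (-1.02). Tlr3 was at most 0.105 TPM in the stimulated libraries, near the lowest value listed, and at 1.73 to 1.90 TPM with TRAIL. Irf7, the regulator that amplifies type I interferon and is itself an ISG, was not called, with 66.4 to 83.6 TPM in medium, 36.4 to 51.2 TPM after stimulation and 49.8 to 61.4 TPM with TRAIL. Irf1, which interferon gamma induces and which comes from the list of other inducible genes, was just under the fold minimum after stimulation (0.97 ± 0.12, SE, limma adjusted p = 4.5e-05) and did not pass the test between TRAIL and stimulated cells (-0.07 ± 0.12, limma adjusted p = 0.645).

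Of 12 genes that restrain the pathway, 2 were higher and 4 lower after stimulation, and with TRAIL 4 were higher than in stimulated cells and 3 lower. Socs1, which binds and inhibits JAK kinases, was at 4.93, 6.79 and 5.8 TPM in medium, 147, 117 and 105 TPM after stimulation and 10.8, 13.6 and 12.1 TPM with TRAIL. The stimulated libraries were far above the others, and TRAIL was above medium without overlap. Socs1 had log2 fold changes of 4.18 ± 0.15 (SE, limma adjusted p = 6.01e-09) and -3.23 ± 0.15 (limma adjusted p = 4.09e-08). Socs3, a relative that binds cytokine receptors, had 2.04 ± 0.11 and -1.68 ± 0.11, and Ptpn2, a phosphatase that acts on JAK1, was lower with TRAIL than in stimulated cells (-1.05 ± 0.08). Higher with TRAIL were Tnfaip3 (2.64 ± 0.12), which edits ubiquitin in the NF-κB pathway, Rnf125 (2.36 ± 0.19), a ubiquitin ligase that acts on RIG-I and MDA5, and Nlrc3 (1.90 ± 0.21). Tnfaip3 was at 82.9 to 98.4 TPM in medium, 94.5 to 126 TPM after stimulation and 696 to 736 TPM with TRAIL.

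**Figure D5:**
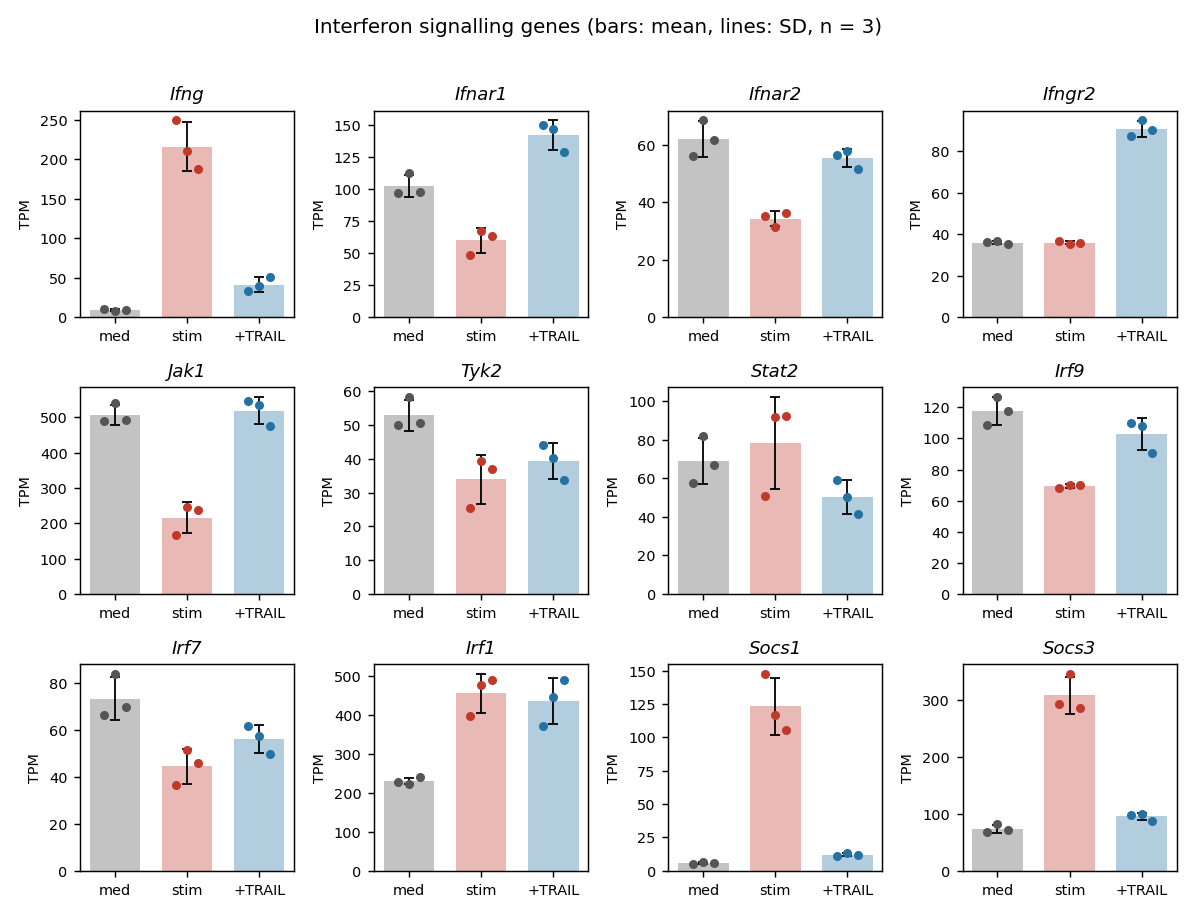
TPM (y axis, from 0) of 12 genes of interferon signalling in medium (med), after anti-CD3/CD28 (stim) and after anti-CD3/CD28 with TRAIL (+TRAIL). Bars are means of 3 libraries, lines are SDs and points are single libraries. Ifng, Socs1 and Socs3 are highest after stimulation, Jak1 is lowest there, and Ifngr2 is highest with TRAIL.

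Nearly all markers of macrophages and monocytes, B cells, neutrophils and erythroid cells were called lower after stimulation and higher with TRAIL than in stimulated cells. All 12 macrophage and monocyte markers were called lower after stimulation and all 12 higher with TRAIL than in stimulated cells, and their summed TPM was 1763 to 1875 in medium, 74.3 to 83.9 after stimulation and 1415 to 1599 with TRAIL. All 10 B cell markers were lower after stimulation and 9 of 10 higher with TRAIL, with sums of 6053 to 6708, 723 to 789.6 and 3057 to 3534 TPM. All 8 neutrophil and all 7 erythroid markers were lower after stimulation and higher with TRAIL than in stimulated cells. Their sums were 867 to 1136, 33.0 to 49.9 and 497 to 599 TPM for neutrophils, and 2137 to 2585, 24.8 to 39.6 and 619 to 669 TPM for erythroid cells. Of these markers, Retnlg and Slc4a1 were listed at the lowest value, 0.0001 TPM, in all stimulated libraries.

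For plasmacytoid dendritic cells, the main producers of type I interferon, 4 of 6 markers were lower and 1 higher after stimulation, and with TRAIL 4 were higher than in stimulated cells and 1 lower. Their sums were 224 to 276, 63.5 to 68.0 and 107 to 131 TPM, and single markers carried them. Spib was at 166 to 209 TPM in medium, 6.6 to 8.71 TPM after stimulation and 57.1 to 78.3 TPM with TRAIL, and Cox6a2, the marker that went the other way, was at 1.42 to 2.75, 33.9 to 44.8 and 2.17 to 2.52 TPM. Spib held most of the medium sum. Its mean with TRAIL was 0.37 of that in medium, against 0.71 to 1.17 in the rest of its list. In the B cell list this ratio ran from 0.36 to 0.58. Which cells Spib came from was not tested. Siglech was at 9.85 to 10.2, 0.172 to 0.243 and 6.51 to 8.32 TPM, and Ccr9 at 9.12 to 10.5, 0.317 to 0.475 and 6.2 to 7.7 TPM. The NK cell markers summed to 199 to 232, 76.9 to 85.4 and 82.0 to 89.2 TPM, with 4 of 6 lower after stimulation and, with TRAIL, 3 higher than in stimulated cells and 1 lower. Ncr1 (2.51 to 2.9 TPM after stimulation and 7.89 to 9.52 TPM with TRAIL), Klra8 (1.35 to 1.75 and 5.83 to 8.21) and Klrb1c (2.51 to 3.95 and 6.8 to 8.12) were the higher ones, and Prf1, which held more than any other marker of the stimulated sum (38.9 to 48.6 and 15.5 to 20.7), was the lower one. These markers are named after their values were seen. The 2 CD8 markers summed to 110.0 to 118, 94.2 to 105 and 46.9 to 49.4 TPM. The 10 T cell markers, which include Cd3e, Cd4 and Trac, were present in every library. They summed to 3978 to 4289 TPM in medium, 3749 to 3973 TPM after stimulation and 4015 to 4432 TPM with TRAIL. After stimulation 1 was called higher and 1 lower, and none was called with TRAIL. At an adjusted p under 0.05 without a fold minimum, 2 were higher and 3 lower after stimulation. With TRAIL, 6 were then higher than in stimulated cells and 1 lower. Cd3g, Cd4 and Lck fell after stimulation (log2 fold changes -1.04, -0.81 and -0.46). With TRAIL these 3 were higher than in stimulated cells (0.99, 0.81 and 0.31). Cd2 went the other way (1.09 and -0.91). Of 10 housekeeping genes, 4 were higher and 1 lower after stimulation, and with TRAIL 1 was higher than in stimulated cells and 3 lower. Gapdh, called in both comparisons, was at 97, 545 and 98 TPM in the stimulated libraries, so 1 library raised its mean. Over all genes tested, 12.4% were called higher and 19.5% lower after stimulation, and 16.6% and 14.3% for TRAIL against stimulated. Against medium, TRAIL-treated cells had none of the macrophage and monocyte markers called, 6 B cell, 3 neutrophil, 7 erythroid, 4 NK cell and 2 CD8 markers lower and 1 plasmacytoid dendritic cell marker lower. The part of other cell types in the changes of the ISGs was not tested.

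Stimulated replicate 1 was the lowest of its group for 21 of the 35 ISGs (60%) and for 58.5% of all genes tested, and TRAIL replicate 3 was the lowest of its group for 21 (60%) and for 61.4%. Without TRAIL replicate 3, 8 ISGs were called higher and 6 lower than in stimulated cells, and 0 higher and 1 lower than in medium. Of the 15421 genes tested there, 2701 were called higher and 2131 lower than in stimulated cells, and 347 and 277 than in medium. Across the 35 ISGs the deviation of stimulated replicate 1 from the other stimulated libraries, on the log2 scale, had a Pearson r of -0.83 with the log2 of exonic length, and -0.35 across 15508 genes tested with a known length. These are descriptions over genes that share the same libraries. The 21 ISGs that were lowest there had a median exonic length of 4689 bases, against 1815 bases for the other 14. Without stimulated replicate 1, 3 ISGs were called higher and 11 lower after stimulation, and with TRAIL 8 were higher and 7 lower than in stimulated cells. Of the 15237 genes tested there, 1752 and 2806 were called after stimulation, and 2350 and 2111 for TRAIL against stimulated. Across the same 35 genes the log2 fold change had an r of -0.29 with log2 length for stimulated against medium, 0.23 for TRAIL against stimulated and -0.29 for TRAIL against medium, where all genes gave -0.017, -0.046 and -0.15.

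The 35 genes lie on 11 chromosomes of GRCm38, and 18 of them are within 100000 bases of another of the 35. The clusters are Ifit2, Ifit3, Ifit3b and Ifit1 on chromosome 19, Oas2 with Oas3 and Oasl1 with Oasl2 on chromosome 5, the Ifitm genes on chromosome 7, Rsad2 with Cmpk2 on chromosome 12, and Mx1 with Mx2 and Parp9, Dtx3l and Parp14 on chromosome 16. Neighbours need not have moved together: the calls of Oas2 and Oas3 differed, as did those of Ifitm1 and Ifitm3, while in the pairs Mx1 with Mx2 and Rsad2 with Cmpk2 both fell after stimulation. Ddx58, on the minus strand at chr4:40203773-40239828, Samd9l, on the minus strand at chr6:3372257-3399572, and Isg15, on the minus strand at chr4:156199455-156200796, stand alone, with no other of the 35 within 100000 bases.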

How the data were processed

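The deposited values are TPM per gene, made by the authors from mRNA libraries (TRIzol RNA, Agilent SureSelect kit). The submitters' processing notes name Trimmomatic 0.36, HISAT2 2.1.0, SAMtools 1.2, StringTie 2.1.2 and DESeq2, without roles, and strand handling is not given in the sources used here. The notes name a human build, but the loci in the table are those of GRCm38, which was used. Each library sums to 1000000 TPM, and 13691 to 14909 genes reach 1 TPM. Read depth is unknown, so no counting interval is given, and the lowest value listed is 0.0001 TPM. Since TPM are shares, a large change in abundant genes moves all others. 114 symbols are listed more than once, and genes were matched by identifier.

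The 9 libraries were fitted with limma 3.58.1 (R 4.3.3), with a mean-variance trend in eBayes, on log2(TPM + 1), a scale that understates changes of low genes. Genes with 1 TPM in 3 libraries were tested, p-values were Benjamini-Hochberg adjusted over all 15536, and calls needed an adjusted p under 0.05 and a log2 fold change of 1 or more in either direction. The procedure was tested on simulated data. Promoter windows, loci and shared stretches of 100 bases were read from RefSeq and GENCODE M21 with Python 3.11.15 and pandas 2.3.3, and figures were drawn with matplotlib 3.10.9.

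The members and the lists of ligands, receptors, signalling, production, restraining, other inducible, cell marker and housekeeping genes were chosen with earlier results of these data known. Named were all members, the receptor and signalling genes (1 of these is not reported here), Ifng, Ifnb1, Irf7, Irf1, Socs1, Socs3 and, in each other pathway list, up to 3 called genes that rose most and up to 3 that fell most with TRAIL against stimulated. The 20 alternatives changed the scaling, the pseudocount, the fold minimum, the filter, the model of the variance or the samples fitted, added a replicate block, or left out each of the 9 libraries.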

Additional observations from a re-analysis of the deposited data

How the results depend on the processing

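Of the 32 calls among the 35 ISGs, 18 held under all 20 alternatives, 14 were lost under at least 1, and none of the called values changed sign. Of the 73 differences not called, 43 gained a call under at least 1 alternative, of which 39 only when the fold minimum was dropped, and 8 changed sign under at least 1. The 4 that gained a call otherwise were Ifit3 and Ifit3b after stimulation and Ifi44 and Ifi35 for TRAIL against stimulated. A pseudocount of 5 ended 13 calls, all of those lost except that of Zbp1: Rsad2, Mx2, Ifitm1, Ifitm3, Oas2 and Ifit1 after stimulation, Mx1, Cmpk2, Mx2, Isg20 and Dtx3l for TRAIL against stimulated, and Oas3 and Samd9l for TRAIL against medium. It left 7 ISGs lower after stimulation, 5 higher with TRAIL than in stimulated cells and 0 lower with TRAIL than in medium, where the median was -0.43. Over all 15536 genes tested these calls fell as well, from 3033 to 1696, from 2580 to 1412 and from 331 to 116. Median-of-ratios scaling left 1 ISG lower with TRAIL than in medium (median -0.36), and in the pathway and other inducible lists together (113 genes tested, with 9 higher and 35 lower after stimulation, 29 and 20 for TRAIL against stimulated, and 5 and 9 for TRAIL against medium) 14 genes higher after stimulation and 3 lower with TRAIL than in medium. Quantile normalization left 1 ISG lower with TRAIL than in medium (median -0.37). For TRAIL against medium over all genes tested, the split of 387 higher and 331 lower became 536 and 187 under median-of-ratios scaling and 526 and 219 under quantile normalization, and for stimulated against medium the split of 1926 and 3033 became 2434 and 2240 under quantile normalization. The median of the ISGs for TRAIL against stimulated turned to 0.0050 under median-of-ratios scaling, while that of all genes tested moved by 0.083, from 0.011 to 0.093. Either scaling ended the calls of Isg20, Dtx3l, Ifitm3 and Samd9l (TRAIL against medium), and quantile normalization also those of Zbp1, Ifit1, Oas2 and Mx2 after stimulation and of Mx1 with TRAIL, each by falling under the fold minimum. The cause of these changes was not tested.

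Without a fold minimum, 7 ISGs were higher and 18 lower after stimulation. With TRAIL 12 were higher and 14 lower than in stimulated cells, and 1 was higher and 23 were lower than in medium. Those lists, with 113 genes tested, then gave 24 higher and 66 lower after stimulation, 44 and 40 for TRAIL against stimulated, and 10 and 63 for TRAIL against medium. The shares of all genes tested were 28.8% and 40%, 33.5% and 33.5%, and 8.03% and 24.6% in the same order.

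Leaving out each library in turn gave 3 ISGs higher and 11 to 13 lower after stimulation (median -0.51 to -0.36). It gave 7 to 8 higher and 6 to 8 lower with TRAIL than in stimulated cells (median -0.14 to 0.0088, above 0 without stimulated replicate 2). Against medium it gave 0 higher and 1 to 2 lower (median -0.58 to -0.47), and the count was 1, Oas3 alone, without medium replicate 1 or 3 or TRAIL replicate 2 or 3. In the pathway and other inducible lists the ranges were 9 to 12 higher and 30 to 42 lower, 28 to 30 and 17 to 21, and 5 to 7 and 9 to 13. Over the 15237 to 15421 genes tested there, 1740 to 1958 were called higher and 2806 to 3260 lower after stimulation. With TRAIL, 2350 to 2756 were higher and 2009 to 2316 lower than in stimulated cells. Against medium, 347 to 393 of all these genes were higher and 277 to 416 lower.

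The groups share replicate numbers, but same-numbered libraries did not all deviate together. For replicates 1, 2 and 3 the correlations were -0.31, 0.020 and -0.20 between stimulated and TRAIL libraries, 0.21, 0.29 and -0.18 between medium and stimulated, and -0.13, 0.084 and 0.20 between medium and TRAIL, so the numbers were not taken to pair the samples. With the replicate number as a block, 3 ISGs were higher and 12 lower after stimulation, 8 and 7 with TRAIL against stimulated, and 0 and 2 with TRAIL against medium. Over all 15536 genes tested the counts were 1927 and 3033, 2582 and 2220, and 386 and 328 in the same order. Each gene has 3 libraries a group and no read total, which limits the precision of low genes such as Ifi44. In the 250 bases before the start alone, 36% of the 25 ISGs with a window held the ISRE letters, against 52% in the whole window.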

Other observations

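The groups described here come from the list of other interferon-inducible genes counted in the report, and were put together after their values were seen, so no test of a group is given. The PYHIN genes, most of which lie together on chromosome 1 and encode DNA-binding proteins such as AIM2, went in both directions. Of 12, 8 were lower after stimulation and 2 higher, and with TRAIL 8 were higher than in stimulated cells and 2 lower. Mndal was at 655, 684 and 672 TPM in medium, 54.6, 71.2 and 60.3 TPM after stimulation and 537, 502 and 463 TPM with TRAIL, with the stimulated libraries far below the rest. Ifi203 and Ifi213 had log2 fold changes of 3.07 and 2.91 for TRAIL against stimulated. Ifi211 moved the other way, with 20.3, 15.6 and 18.1 TPM in medium, 64.3, 63.3 and 61.1 TPM after stimulation and 11.4, 11.2 and 12.4 TPM with TRAIL, and Ifi205 had a log2 fold change of -2.13. Shared sequence among these genes was not measured.

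Ly6a, which encodes the surface protein Sca-1, had the largest fall with TRAIL among the listed genes, at 98.5 to 107 TPM in medium, 1161 to 1581 TPM after stimulation and 42.7 to 51 TPM with TRAIL (log2 fold change -4.77 ± 0.13, SE, against stimulated, limma adjusted p = 1.25e-09). Of 5 genes that process peptides for MHC class I, which interferon gamma also induces, none was called after stimulation and 4 were lower with TRAIL than in stimulated cells (Psmb8, Psmb9, Tap1 and Tapbp). Psmb8, a subunit of the immunoproteasome, was at 246, 247 and 222 TPM in medium, 475, 428 and 448 TPM after stimulation and 174, 154 and 136 TPM with TRAIL, with no overlap between groups.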
